A study of Mus musculus with 6 samples.

Results

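The 10 neuropeptide genes *Calca*, *Calcb*, *Tac1*, *Adcyap1*, *Gal*, *Npy*, *Sst*, *Nppb*, *Vip* and *Nts* were followed in bulk RNA-seq of mouse dorsal root ganglion (DRG) and neurofibroma tissue. They were chosen by gene symbol from the 24062 genes of the count data, and all 10 were found. Each of the 6 libraries comes from 1 mouse on a C57BL/6-I129 background, 3 from Nf1fl/fl;DhhCre mice, labelled as Nf1-/- nerve tissue with the tissue DRG, and 3 labelled as neurofibroma tumor of the genotype Rx1flfl;Rx3fl/fl;DhhCre, called double knockout here. The genotype label of the latter leaves out Nf1fl/fl, while the extraction protocol and the study's methods give it as well and name DRG/tumors as the tissue of both groups. DhhCre is Cre recombinase expressed from the *Dhh* promoter, which acts in the Schwann cell (SC) lineage, so that both groups carry the floxed *Nf1* alleles and the DhhCre transgene and neurons are not the cells in which recombination is driven. Because labelled tissue and genotype change together, their parts in any difference below cannot be told apart. Ages of these mice are not given in the labels used here.

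Neuropeptides are made as longer precursors, cut and amidated inside dense-core vesicles, and released from nerve endings onto G protein-coupled receptors. In the DRG, calcitonin gene-related peptide (CGRP, from *Calca* and *Calcb*), substance P (from *Tac1*) and PACAP (from *Adcyap1*) mark peptidergic nociceptors, while somatostatin (*Sst*) and natriuretic polypeptide b (*Nppb*) mark a class of itch neurons. Galanin (*Gal*), neuropeptide Y (*Npy*) and vasoactive intestinal peptide (*Vip*) are low in intact sensory neurons and are known to rise after nerve injury, and *Npy* is also a classic product of sympathetic neurons. Neurotensin (*Nts*) is known mainly as a peptide of brain and gut, and is also made by the itch neurons that make *Sst* and *Nppb*.

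The counts summed to between 12439296 and 16682194 per library, and 3 counts correspond to 0.179 to 0.246 CPM (reads scaled to a common library total, with TMM factors). *Runx1* was at 131, 141 and 171 CPM in the Nf1fl/fl;DhhCre libraries, against 83.9, 78.8 and 185 CPM in the double-knockout-labelled libraries. *Runx1* was thus not lower in replicate 3 labelled double knockout. Whether the floxed alleles were recombined was not tested, because counts per gene in bulk tissue also hold cells outside the SC lineage. Another sequencing run holds 1 double-knockout library, and its sample label makes it replicate 3 while the mouse number in the data would make it replicate 2. *Runx3* was at 19.9, 15.1 and 29.9 CPM and at 13.5, 10.3 and 12.1 CPM, with no overlap, and its log2 fold change of -0.79 did not pass the test (adjusted p = 0.104). Neuronal transcripts differed between the groups: 11 of 12 general neuron genes (*Snap25*, *Rbfox3*, *Tubb3* and others) were called higher in the double-knockout-labelled libraries, their summed level was 551 to 1041 CPM against 2473 to 5392 CPM, and none of the 12 was at 0. The DRG sensory neuron genes moved alike, with 11 of 12 measured called higher (*Avil*, *Scn10a*, *Prdm12* and others). Of 8 macrophage genes 6 were called lower, as were 4 of 5 fibroblast genes. Summed skeletal muscle genes reached 2597 CPM in Nf1fl/fl;DhhCre replicate 2 and 11340 CPM in double-knockout replicate 2, against 3.91 to 69.9 CPM in the rest. In bulk tissue, fewer cells of a type and less RNA per cell cannot be told apart.

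CGRP is encoded by *Calca* (chr7:114631478-114636357, minus strand, GRCm38) and by its neighbor *Calcb* (chr7:114718643-114723365, plus strand), and the coding stretches of the mature peptides are shown because their likeness bears on how reads are shared between the genes. They come from the GENCODE M21 transcripts Calca-201 (exon 4, chr7:114632470-114632580) and Calcb-203 (exon 5, chr7:114721994-114722104). Both have 111 bases, read 5′ to 3′ on the coding strand, and the bases that differ are in capitals.
Calca: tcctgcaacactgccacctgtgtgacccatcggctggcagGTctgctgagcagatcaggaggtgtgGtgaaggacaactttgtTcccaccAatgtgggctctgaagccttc
Calcb: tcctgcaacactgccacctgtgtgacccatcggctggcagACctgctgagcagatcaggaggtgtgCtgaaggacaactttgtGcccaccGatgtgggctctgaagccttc
The stretches differ at 5 bases, are 95.5% identical and encode peptides that differ at 3 of 37 residues. Outside this stretch the transcripts diverge, since 12 of 1260 windows of 50 bases in *Calcb* (0.952%) and none of 75 bases occur in a *Calca* transcript. Neither the read length nor the way multiply aligned reads were counted is given in the sources used here, so that the split of reads between the genes carries an uncertainty that the counts do not show. *Calca* counts also hold calcitonin transcripts, which are spliced from the same gene.

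*Calca* was the most abundant neuropeptide gene in every library. It was at 43.6, 103 and 34.2 CPM in the Nf1fl/fl;DhhCre libraries, against 171, 177 and 326 CPM in the double-knockout-labelled libraries. The groups did not overlap, and *Calca* rose with a log2 fold change of 1.99 (adjusted p = 0.0226, SE 0.43, n = 3 per group, limma-voom with Benjamini-Hochberg adjustment over all genes tested). *Calcb* was at 2.91, 4.82 and 0.385 CPM and at 13.8, 15.8 and 33.9 CPM. All 3 double-knockout libraries were above the rest, and the log2 fold change of *Calcb* was 3.44 (adjusted p = 0.0344, SE 0.87, limma-voom). Its lowest value, in Nf1fl/fl;DhhCre replicate 3, rests on 6 reads, and without that library the log2 fold change was 2.42. It was 4.25 without Nf1fl/fl;DhhCre replicate 2, the other end of the range over fits without 1 library, and 4.38 without both libraries rich in muscle genes.

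The other peptidergic transmitter genes, *Tac1* and *Adcyap1*, rose as well. *Tac1*, the precursor gene of substance P and neurokinin A (chr6:7554879-7565834, plus strand), was at 5.75, 14.0 and 4.04 CPM in the Nf1fl/fl;DhhCre libraries, against 21.2, 26.1 and 52.8 CPM in the double-knockout-labelled libraries. The groups did not overlap and the log2 fold change was 2.16 (adjusted p = 0.0337, SE 0.54, limma-voom). *Adcyap1*, which encodes PACAP (chr17:93199017-93206537, plus strand), was at 4.44, 8.81 and 2.44 CPM and at 13.9, 12.2 and 25.5 CPM. The groups were again apart, with a log2 fold change of 1.84 (adjusted p = 0.0433, SE 0.50, limma-voom), although edgeR's quasi-likelihood test did not call *Adcyap1* (adjusted p = 0.0541, the highest over 7 alternatives, whose lowest was 0.00492). Of the 6 fits that left out 1 library, *Adcyap1* was called in 1, that without Nf1fl/fl;DhhCre replicate 2, with adjusted p-values of 0.0246 to 0.122 (limma-voom).

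*Sst*, the somatostatin gene (chr16:23889573-23890958, minus strand), was at 0.554, 1.07 and 1.09 CPM in the Nf1fl/fl;DhhCre libraries, against 7.96, 9.69 and 14.5 CPM in the double-knockout-labelled libraries. These values rest on 8, 18 and 17 reads and on 100, 118 and 220 reads. The groups did not overlap, and the log2 fold change was 3.54 (adjusted p = 0.0111, SE 0.54, limma-voom). *Nppb*, which itch neurons of the same class release onto spinal cord neurons (chr4:147985788-147987205, plus strand), was too low for the test, with 2, 1 and 0 reads in the Nf1fl/fl;DhhCre libraries and 5, 5 and 21 reads in those labelled double knockout. These counts did not overlap, and the rate in the Nf1fl/fl;DhhCre group was 0.0824 of that in the other (95% exact interval 0.0161 to 0.264, counting error only). Double-knockout replicate 3 holds 21 of the 31 reads of its group. The difference in mean log2 CPM was 3.05 with all libraries and 2.49 without that replicate. It was 2.40 without Nf1fl/fl;DhhCre replicate 3 and 3.61 without Nf1fl/fl;DhhCre replicate 1, the ends of the range. In a fit without a filter on low counts *Nppb* had a log2 fold change of 3.08, which missed the threshold (adjusted p = 0.0561, limma-voom).

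*Gal* (chr19:3409915-3414544, minus strand), the galanin gene, was at 0.0693, 0.476 and 1.22 CPM in the Nf1fl/fl;DhhCre libraries, against 1.12, 1.97 and 4.35 CPM in the double-knockout-labelled libraries. The groups overlapped through Nf1fl/fl;DhhCre replicate 3, and the log2 fold change of 2.45 (adjusted p = 0.130, SE 1.01, limma-voom) did not pass the test. It was 1.56 without Nf1fl/fl;DhhCre replicate 1 and 3.30 without Nf1fl/fl;DhhCre replicate 3, and was not called in either fit. *Nts* (chr10:102481756-102490486, minus strand) was at 0.485, 4.52 and 0.961 CPM and at 2.15, 0.411 and 4.49 CPM. Its groups overlapped over nearly their whole range (log2 fold change 0.34, adjusted p = 0.858, SE 1.08, limma-voom), and the sign depended on the libraries used. *Vip* (chr10:5639218-5647617, plus strand) had 3 reads in Nf1fl/fl;DhhCre replicate 3 and 0 in the other libraries, so that no difference was detectable at this depth.

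*Npy* (chr6:49822710-49829507, plus strand) went the other way. It had 3, 26 and 57 reads in the Nf1fl/fl;DhhCre libraries, or 0.208, 1.55 and 3.65 CPM, and 0, 0 and 1 reads in the double-knockout-labelled libraries. Every Nf1fl/fl;DhhCre library was above every library labelled double knockout. With 86 reads against 1 in all, the ratio of the rates was 73.3, and its 95% exact interval, which covers counting error only, ran from 12.8 to 2927. Of the 86 reads, 57 come from Nf1fl/fl;DhhCre replicate 3, and the difference in mean log2 CPM was -4.36 with all libraries, -3.50 without that replicate and -5.47 without Nf1fl/fl;DhhCre replicate 1. *Npy* was below the filter on low counts, and the fit without a filter gave a log2 fold change of -4.41 (adjusted p = 0.0567, SE 1.28, limma-voom), which missed the threshold. With 1 library left out *Npy* passed the filter in 4 of the 6 fits, those without Nf1fl/fl;DhhCre replicate 1 or any 1 double-knockout library, and was not called in any of the 4 (log2 fold change -5.42 to -4.15, adjusted p = 0.0573 to 0.277, limma-voom).

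**Figure D1:**
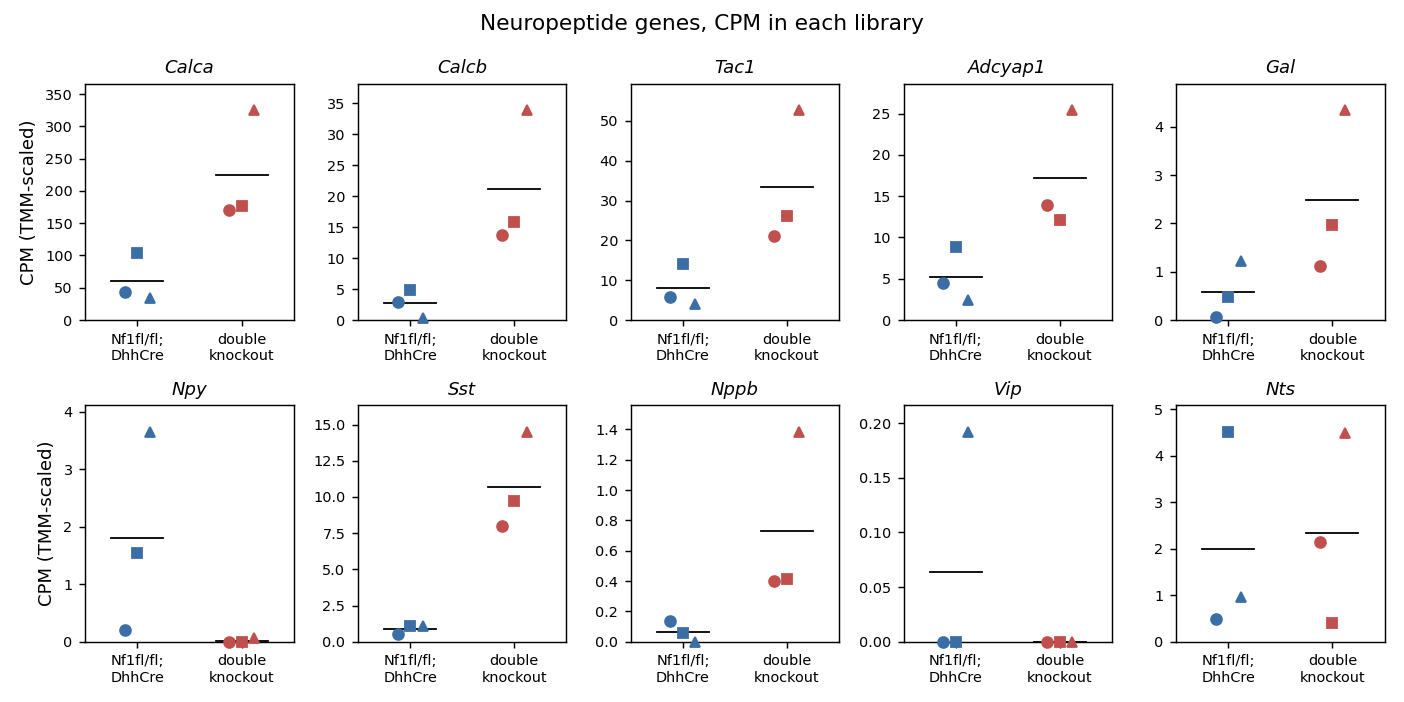
CPM of each neuropeptide gene (vertical axis, linear and from 0, its own scale in each panel) in the 3 Nf1fl/fl;DhhCre libraries (blue) and the 3 double-knockout-labelled libraries (red). Circles, squares and triangles are replicates 1, 2 and 3 and lines are group means; *Calca*, *Calcb*, *Tac1*, *Adcyap1*, *Sst* and *Nppb* are higher in all 3 red libraries, *Npy* is lower, and *Gal*, *Vip* and *Nts* overlap.

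Some genes of sympathetic neurons moved with part of this pattern. Nf1fl/fl;DhhCre replicate 3, the library with the most *Npy* and *Gal* of its group and the only one with *Vip* reads, had 31.9 CPM of *Dbh*, the noradrenaline-making enzyme, against 0.485 and 0 CPM in the other Nf1fl/fl;DhhCre libraries and 0 in all 3 labelled double knockout. *Slc6a2*, the noradrenaline transporter, was at 156 CPM there and at 6.73 to 19.0 CPM elsewhere, and *Hand2*, a transcription factor of these neurons, was at 2.69 CPM there and at no more than 0.119 CPM elsewhere. The 10 sympathetic genes summed to 259 CPM in that library, 156 CPM of it from *Slc6a2*, and to 43.4 to 98.3 CPM in the rest. *Th*, *Chrna3*, *Maob* and *Gata3* of this list were highest in other libraries. *Chrna3* was at 9.55 CPM in Nf1fl/fl;DhhCre replicate 3 and at 18.5 CPM in double-knockout replicate 3. *Maob* was at 6.34 CPM in the former and at 18.2 and 19.7 CPM in double-knockout replicates 1 and 2. *Npy* was at 1.55 CPM in Nf1fl/fl;DhhCre replicate 2, where *Dbh* was at 0, *Slc6a2* at 6.73 and *Th* at 2.92 CPM. Of the list, 1 gene, *Th*, was called, and it was higher in the double-knockout-labelled libraries (log2 fold change 2.53, adjusted p = 0.0326, limma-voom). The part of sympathetic neurons in the *Npy*, *Gal* and *Vip* values was not tested in any library.

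**Figure D2:**
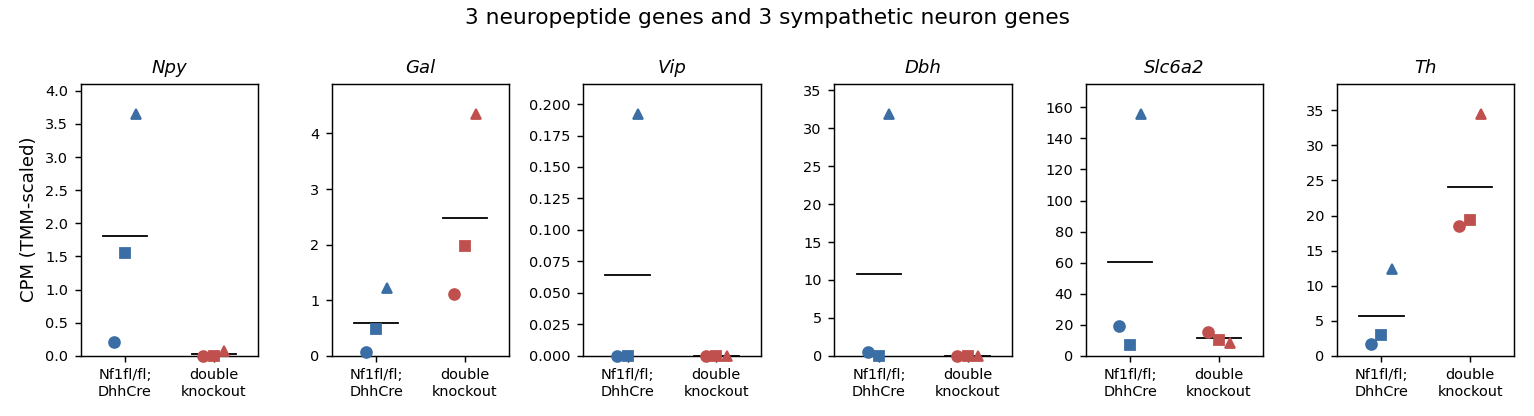
CPM (vertical axis, linear and from 0, its own scale in each panel) of *Npy*, *Gal*, *Vip* and the sympathetic neuron genes *Dbh*, *Slc6a2* and *Th* in the Nf1fl/fl;DhhCre (blue) and double-knockout (red) libraries, with replicates 1, 2 and 3 as circles, squares and triangles and group means as lines. The blue triangle, replicate 3, is highest for *Npy*, *Vip*, *Dbh* and *Slc6a2*, with 31.9 CPM of *Dbh* and 156 CPM of *Slc6a2*.

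In counts over the whole group of genes, 5 of the 10 were called higher in the double-knockout-labelled libraries (adjusted p below 0.05 and more than 2-fold), where 8.03% of all 15652 genes tested were called in that direction. None was called lower, where 5.36% of all genes were. The 7 that could be tested all had positive fold changes, so that 0 were lower at an unadjusted p below 0.05, and edgeR and DESeq2 also called 0 lower. *Npy* did not enter these fits. Of the 10, 6 had all double-knockout values above all Nf1fl/fl;DhhCre values and 1, *Npy*, had all below. These counts include *Nppb* and *Npy*, which were not tested. Among the 7 tested the counts were 5 and 0, where the shares of all genes tested were 21.8% and 20.5%. Of the 10, 7 passed the filter on low counts, with a median log2 fold change of 2.16 against 0.015 over all genes tested, which describes them only, because a gene can pass through the group in which it is high. The number of calls depended on which library was left out: without Nf1fl/fl;DhhCre replicate 1 none of the 10 was called, without Nf1fl/fl;DhhCre replicate 3 or double-knockout replicate 2 only *Sst* was, without double-knockout replicate 3 *Calca* and *Sst* were, without double-knockout replicate 1 all of the 5 but *Adcyap1* were, and the fitted change of each of the 5 stayed above 2-fold in every one of these fits. *Sst* was called in 5 of the 6 fits that left out 1 library and had an adjusted p of 0.0507 without Nf1fl/fl;DhhCre replicate 1. Without both libraries rich in muscle genes, 4 were called (all but *Calcb*).

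The next comparison asked whether the neuropeptide genes changed more or less than neuronal genes at large. For each library, the mean log2 CPM of the 12 general neuron genes (4.12, 5.03 and 4.21 in the Nf1fl/fl;DhhCre libraries and 6.06, 6.31 and 7.07 in those labelled double knockout) was subtracted from the log2 CPM of each neuropeptide gene. *Calca* was 1.29 ± 0.385 log2 units above the neuron mean in the Nf1fl/fl;DhhCre libraries and 1.26 ± 0.101 above it in those labelled double knockout (SD, n = 3 each), a difference of -0.03 (exact permutation test, two-sided, p = 0.9). *Tac1* differed by 0.13 and *Adcyap1* by -0.20 on this scale (exact permutation p = 0.9 and 0.6), both within the SD of the Nf1fl/fl;DhhCre libraries, 0.483 and 0.566.

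*Sst*, *Calcb* and *Npy* stood apart from the general neuron genes. *Sst* was at -4.88, -4.90 and -4.04 log2 units relative to the neuron mean in the Nf1fl/fl;DhhCre libraries and at -3.06, -3.03 and -3.21 in those labelled double knockout, so that *Sst* was higher per neuronal transcript by 1.51 without overlap. *Calcb* was at -2.56, -2.76 and -5.47 and at -2.27, -2.33 and -1.98, a difference of 1.4 that fell to 0.46 without Nf1fl/fl;DhhCre replicate 3. *Npy* had a difference of -6.39, a value that depends on the 0.5 counts added before taking logs and became -4.93 with 2 counts added. For each of the 3 the exact permutation test gave p = 0.1, the smallest that 3 against 3 libraries allow, so that none can pass a threshold of 0.05. *Gal* (0.40), *Nppb* (1.02) and *Nts* (-1.72) overlapped between the groups (exact permutation p = 0.7, 0.3 and 0.3). The *Nppb* value became 0.066 with 2 counts added, and that of *Gal* was -0.41 without Nf1fl/fl;DhhCre replicate 1 and 1.34 without Nf1fl/fl;DhhCre replicate 3. With 1 library left out, the value ranged from 0.49 to 1.75 for *Nppb* and from -2.23 to -0.87 for *Nts*. Against the DRG sensory neuron genes in place of the general ones, the same 3 genes did not overlap, with differences of 1.37 for *Sst*, 1.26 for *Calcb* and -6.53 for *Npy*.

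**Figure D3:**
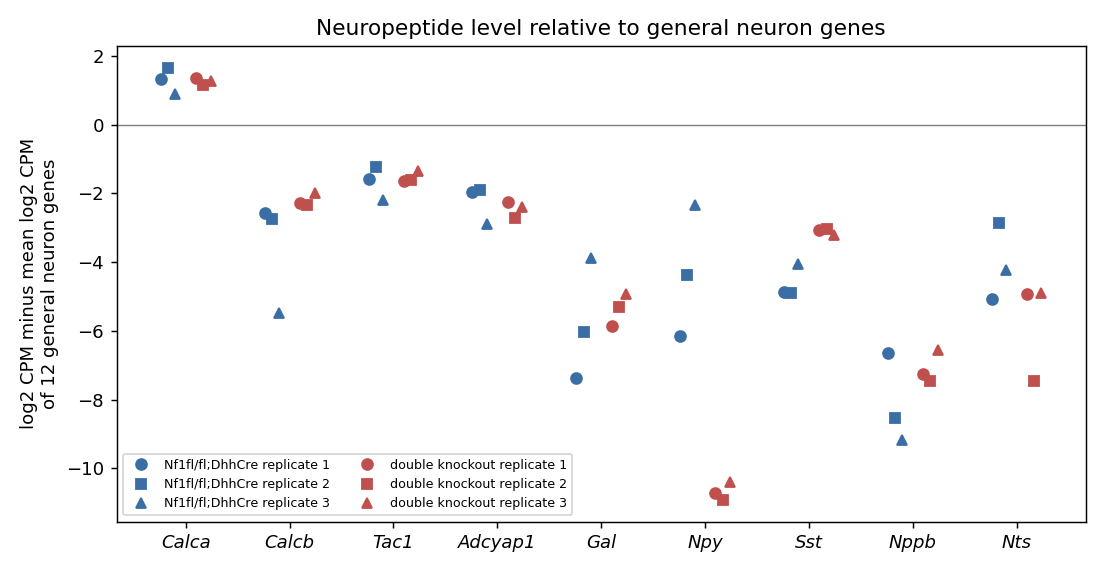
Log2 CPM of each neuropeptide gene minus the mean log2 CPM of 12 general neuron genes (vertical axis) in the Nf1fl/fl;DhhCre (blue) and double-knockout (red) libraries, 1 point per library, with *Vip* left out because it had 3 reads in all. *Calca*, *Tac1* and *Adcyap1* overlap between the colors, *Sst* is higher in red by 1.51, and the *Npy* difference is -6.39.

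The mixture of neuropeptide transcripts was steady for its main member. *Calca* made up 75.0%, 74.6% and 71.0% of the reads of the 10 genes in the Nf1fl/fl;DhhCre libraries and 73.8%, 72.6% and 70.4% in those labelled double knockout. *Sst* made up 0.953%, 0.772% and 2.26% and then 3.44%, 3.99% and 3.14%, and *Npy* made up 0.358%, 1.11% and 7.58% and then 0%, 0% and 0.0143%. *Calca* had 78.6, 96.6 and 31.4 reads per *Sst* read in the Nf1fl/fl;DhhCre libraries and 21.4, 18.2 and 22.4 in the others, without overlap. *Calca* and *Tac1* kept a ratio of 6.17 to 8.48 reads over all 6 libraries.

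Per kilobase of annotated exon, the order of the levels changed between the groups below *Calca*. In the Nf1fl/fl;DhhCre libraries *Calca* was at 35.9 ± 22.3 CPM per kb (SD, n = 3), followed by *Npy* at 3.18 ± 3.07, *Tac1* at 2.33 ± 1.57, *Calcb* at 2.14 ± 1.76, *Nts* at 1.59 ± 1.77, *Adcyap1* at 1.38 ± 0.863, *Sst* at 1.26 ± 0.421 and *Gal* at 0.746 ± 0.738 CPM per kb, with *Nppb* (0.0846) and *Vip* (0.0188) far below. From *Npy* to *Gal*, each differed from the next by less than the larger SD of the pair. In the double-knockout-labelled libraries *Calca* was at 133 ± 52.1 CPM per kb, followed by *Calcb* at 16.7 ± 8.77, *Sst* at 14.9 ± 4.71, *Tac1* at 9.81 ± 4.998, *Adcyap1* at 4.55 ± 1.91, *Gal* at 3.15 ± 2.13, *Nts* at 1.88 ± 1.64, *Nppb* at 0.936 ± 0.725 and *Npy* at 0.0388 ± 0.0673 CPM per kb. *Calca* lay above every other gene in each library, and *Calcb* and *Sst* differed by less than their SD.

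Promoter sequences are shown for *Sst*, *Npy* and *Calca*, the genes that stood apart from the neuron genes upward and downward and the one that moved with them. Each is the 250 bases before the RefSeq start site (GRCm38.p6), 5′ to 3′ on the gene's strand. Capitals mark TGACGTCA, the cAMP response element, in *Sst* (chr16:23890845-23891094, minus strand, where the RefSeq start lies inside the GENCODE gene), TGTGG, the core of RUNX binding sites, in *Npy* (chr6:49822460-49822709, plus strand), and TGACG, the shorter form contained in the cAMP response element, in *Calca* (chr7:114636358-114636607, minus strand), on either strand.
Sst: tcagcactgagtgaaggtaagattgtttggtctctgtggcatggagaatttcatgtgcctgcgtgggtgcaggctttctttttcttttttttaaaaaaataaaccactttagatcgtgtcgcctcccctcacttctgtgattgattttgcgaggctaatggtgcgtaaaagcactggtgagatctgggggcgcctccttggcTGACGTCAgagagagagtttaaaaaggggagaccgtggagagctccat
Npy: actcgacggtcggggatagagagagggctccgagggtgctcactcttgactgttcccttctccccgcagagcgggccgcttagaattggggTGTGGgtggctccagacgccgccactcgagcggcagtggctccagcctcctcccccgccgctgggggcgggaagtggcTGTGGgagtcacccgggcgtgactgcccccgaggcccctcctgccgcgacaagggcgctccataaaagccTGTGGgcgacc
Calca: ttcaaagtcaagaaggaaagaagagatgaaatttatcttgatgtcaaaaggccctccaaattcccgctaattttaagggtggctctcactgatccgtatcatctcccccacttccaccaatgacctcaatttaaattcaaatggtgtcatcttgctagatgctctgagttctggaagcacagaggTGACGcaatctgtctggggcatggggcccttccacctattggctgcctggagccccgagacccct
Of the 10 genes, 9 had a RefSeq window of 300 bases. TGACGTCA was found in 1 of the 9, *Sst*, and in 1.79% of all 32851 windows. TGACG was found in 7 of the 9 (*Calca*, *Tac1*, *Adcyap1*, *Sst*, *Vip*, *Nts* and *Gal*) and in 20.8% of all windows. TGTGG was found in 5 of the 9, with 3 matches each in *Npy* and *Nppb* and 1 each in *Sst*, *Gal* and *Nts*, and in 55.9% of all windows. The longer TGTGGT, which contains it, was in none of the 9 and in 16.8% of all windows. These matches describe the letters of the windows and say nothing of binding.

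Receptor genes were called in both directions, and their difference from the ligands was not tested. Of 31 receptor genes and partners, 19 were tested, and 2 were called higher and 2 lower. Over all genes tested the shares called were 8.03% and 5.36%. The median log2 fold change of the 19 was 0.28. The CGRP receptor fell in both of its chains: *Calcrl*, the 7-transmembrane chain shared with adrenomedullin, was at 156, 97.9 and 92.7 CPM in the Nf1fl/fl;DhhCre libraries, against 50.5, 60.0 and 46.1 CPM in those labelled double knockout (log2 fold change -1.11, adjusted p = 0.0209, SE 0.23, limma-voom). *Ramp1*, the accessory chain that makes it a CGRP receptor, was at 6.79, 11.0 and 5.38 CPM and at 1.43, 1.56 and 2.77 CPM (log2 fold change -1.96, adjusted p = 0.0324, SE 0.48, limma-voom). *Crcp*, a cytosolic CGRP receptor partner that is also a subunit of RNA polymerase III, rose by 1.01 on the log2 scale (adjusted p = 0.0198, limma-voom).

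*Galr1*, a galanin receptor, rose from 1.11, 0 and 0.192 CPM to 3.27, 3.86 and 5.74 CPM (log2 fold change 4.53, adjusted p = 0.0314, SE 1.10, limma-voom). *Npy2r*, a neuropeptide Y receptor of sensory and itch neurons, was higher in each library labelled double knockout (2.01, 4.17 and 1.03 CPM against 9.64, 7.88 and 29.0 CPM) but missed the threshold (log2 fold change 2.68, adjusted p = 0.0556, limma-voom), while the other neuropeptide Y receptor with a sizeable level, *Npy1r*, had a log2 fold change of -0.20. The substance P receptor *Tacr1* had a log2 fold change of -0.29, and those of the PACAP and VIP receptors *Adcyap1r1*, *Vipr1* and *Vipr2* were 0.53, -1.12 and -1.32, none of which passed. *Sstr2*, for somatostatin, was at -0.03, *Npr1*, for natriuretic peptides, at 0.34 and *Ntsr2*, for neurotensin, at 3.01 (adjusted p = 0.113), all on the log2 fold scale and not called. *Galr2* and *Ntsr1* were too low to be tested. None of the 4 calls was made without Nf1fl/fl;DhhCre replicate 1 or without double-knockout replicate 3, 2 and 1 receptor genes were called without double-knockout replicates 1 and 2, and 1 was called without both libraries rich in muscle genes.

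The genes that process and store neuropeptides changed mostly in the direction of the ligands and of the neuron genes at large. Of 19 tested, 13 were called higher and 1 lower, with a median log2 fold change of 1.88. Over all genes tested the shares called were 8.03% and 5.36%. The median was 2.28 for the general neuron genes and 2.41 for the DRG sensory neuron genes. Among the called genes the largest increases were those of *Chga*, the vesicle granin chromogranin A (log2 fold change 2.95, SE 0.71), *Pcsk1n*, an inhibitor of the convertase PC1 (2.68, SE 0.61), *Cadps* and *Cadps2*, which prime dense-core vesicles for release (2.39, SE 0.44, and 2.22, SE 0.34), and *Rab27b*, a GTPase of vesicle docking (2.15, SE 0.46), with adjusted p-values of 0.0113 to 0.0307 in limma-voom. *Scg5*, the chaperone of the convertase PC2, had a log2 fold change of 2.83 and just missed the threshold (adjusted p = 0.0505, limma-voom). The convertases had smaller fitted changes, 1.86 for *Pcsk1* and 1.25 for *Pcsk2* on the log2 scale. *Qpct*, which forms the N-terminal pyroglutamate of peptides such as neurotensin, was the 1 gene called lower, at 12.7, 12.5 and 9.48 CPM and then 4.62, 3.04 and 3.96 CPM (log2 fold change -1.57, adjusted p = 0.0147, SE 0.28, limma-voom). The amidating enzyme *Pam* and carboxypeptidase E (*Cpe*), present in many cell types, had log2 fold changes of -0.56 and 0.46 that did not pass. Without Nf1fl/fl;DhhCre replicate 1 none of the list was called, and without Nf1fl/fl;DhhCre replicate 3 or double-knockout replicate 2 the counts were 5 and 8.

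Among 7 peptidases that degrade neuropeptides, 1 rose and 1 fell. *Mme*, neprilysin, which degrades substance P and natriuretic peptides, was at 126, 87.4 and 105 CPM and at 314, 422 and 266 CPM (log2 fold change 1.64, adjusted p = 0.00862, SE 0.21, limma-voom). *Dpp4*, which trims substance P and neuropeptide Y, was at 54.4, 33.3 and 97.3 CPM and at 23.2, 9.20 and 10.5 CPM (log2 fold change -2.10, adjusted p = 0.0314, SE 0.51, limma-voom). The macrophage and fibroblast genes given above fell in the same libraries, and their part in the lower *Dpp4*, *Calcrl* and *Qpct* was not tested.

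**Figure D4:**
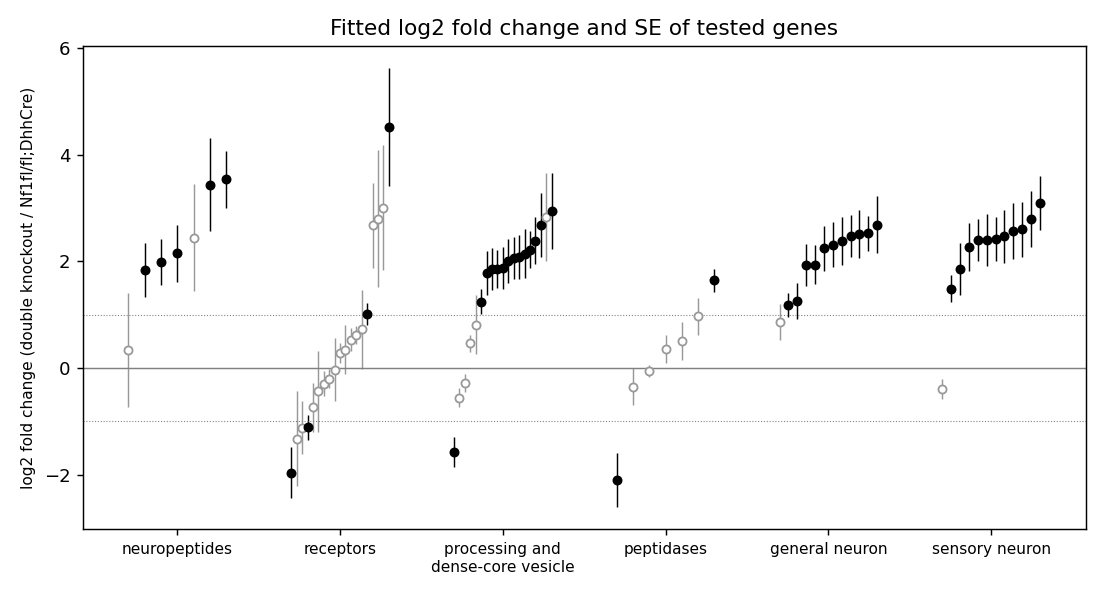
Fitted log2 fold change of double-knockout-labelled libraries over Nf1fl/fl;DhhCre (vertical axis), with SE as bars, for each tested gene of 6 lists ordered by value within each list. Filled black points were called and open grey points were not, and dotted lines mark 2-fold; 5 neuropeptide genes and 13 processing genes are filled above 0, as are 11 general and 11 sensory neuron genes.

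Genes of the neuron classes that make these peptides were compared last. Of 5 genes of the itch neurons that make *Nppb*, *Sst* and *Nts*, 3 were called higher: *Htr1f*, a serotonin receptor (log2 fold change 3.22, adjusted p = 0.0126, SE 0.53, limma-voom), *Il31ra*, a chain of the interleukin-31 receptor (2.40, SE 0.60), and *Cysltr2*, a leukotriene receptor (1.85, SE 0.46). The partner chain *Osmr*, which many non-neuronal cells also express, had a log2 fold change of -0.91 (adjusted p = 0.0393, limma-voom), short of 2-fold. *Nts*, a peptide gene of these itch neurons, was not called (log2 fold change 0.34, adjusted p = 0.858, limma-voom). Of 5 genes of peptidergic nociceptors, *Trpa1*, an irritant channel, was called higher (log2 fold change 2.30, SE 0.40), while *Gfra3* was at -0.35 and not called.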

How the data were processed

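Total RNA from mouse DRG/tumors was amplified by the authors (Ovation RNA-Seq System v2), prepared with Nextera XT and sequenced as paired-end reads. The deposited values are raw counts per gene symbol, made by the authors by aligning to mm10 with TopHat and counting with featureCounts. Strandedness and annotation are not given in the sources used here. Replicates were numbered in accession order, and 4 of 6 titles name another mouse of the same genotype than the deposited data do. Nothing says which libraries share a litter or a day.

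The filter was filterByExpr with a minimum count of 10 and a minimum total of 15. TMM factors were used, and the model was limma-voom (limma 3.58.1, edgeR 4.0.16, R 4.3.3), as the study names edgeR and limma. Genotype was the only term. P-values were adjusted over all 15652 genes tested. Called genes had an adjusted p below 0.05 and a change of more than 2-fold. Log2 CPM used a prior count of 0.5. Gene positions, exon lengths and transcripts were taken from GENCODE M21 and promoters from RefSeq. DESeq2 1.42.0 was an alternative. The fits were checked on simulated counts. The genes named were all 10 neuropeptide genes, the called genes of each other list (at most 5 per direction by size of change), the main receptors whatever their value, and for *Calca*, *Gal* and *Npy* the 5 genes of nearest profile. A few further genes named as examples were chosen after their values were seen. Certain genes covered by these choices are left out of the text. The genes and lists were chosen with earlier results of these data known. P-values measure the spread between these libraries. Intervals cover counting error only.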

Additional observations from a re-analysis of the deposited data

How the results depend on the processing

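The fitted changes of *Calca*, *Calcb*, *Tac1*, *Adcyap1* and *Sst* kept their direction under edgeR, DESeq2, both other scalings, both other filters, sample quality weights and each fit without 1 library. Leaving out 1 library at a time, the number of neuropeptide genes called higher ranged from 0 to 5 and called lower stayed at 0, receptor genes called ranged from 0 to 4, processing genes called from 0 to 15, and neuropeptide genes that did not overlap relative to the neuron genes from 3 to 5. The cause was not tested. The log2 fold change of *Nts* ranged from -0.48 to 1.37 in these fits and turned negative without Nf1fl/fl;DhhCre replicate 1 (-0.23) and without double-knockout replicate 3. Without both libraries rich in muscle genes, an alternative chosen after seeing the data, 1 receptor gene was called. Over all genes, 181 were called higher and 181 lower without Nf1fl/fl;DhhCre replicate 1, against 1257 and 839 with all libraries, and 535 and 498 without Nf1fl/fl;DhhCre replicate 3. With library size as the only scaling the median log2 fold change of all genes was -0.06. Depth limits *Npy*, *Nppb* and *Vip*, with 87, 34 and 3 reads in all. No paired analysis was made, because nothing ties the replicate numbers of the groups to a shared litter or day.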

Other observations

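Beyond the 10 neuropeptide genes, relatives and other peptides were mostly near 0. Of 15 genes of the same peptide families, 4 were tested, and 1 was called, *Gcg*, the glucagon gene of the PACAP and VIP family, which fell from 27.9, 16.3 and 19.1 CPM in the Nf1fl/fl;DhhCre libraries to 10.7, 2.22 and 2.77 CPM in those labelled double knockout (log2 fold change -2.35, adjusted p = 0.0250, SE 0.53, limma-voom). Of 17 further neuropeptide genes, 7 had no reads in any library and 3 were tested. Of these *Nmb*, neuromedin B, an itch-related peptide of sensory neurons, rose from 3.74, 8.45 and 0.705 CPM to 14.8, 18.3 and 34.8 CPM (log2 fold change 2.89, adjusted p = 0.0425, SE 0.79, limma-voom). Of 10 genes known to rise in injured sensory neurons 9 were tested, and *Gap43*, a growth cone protein that neurons also hold without injury, was called higher (log2 fold change 1.61, adjusted p = 0.0170, limma-voom), while *Atf3* was at -0.06 and *Sprr1a* at -4.38 (adjusted p = 0.108). Of the 9, 2 had positive and 7 negative fold changes, and 0 were called lower. Without overlap 1 was higher and 4 were lower, where the shares of all genes tested were 21.8% and 20.5%.

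Among the 10219 genes whose average log2 CPM reached 3, those whose log2 profile over the 6 libraries lay closest to *Calca* included *Reep1*, *Plcxd2*, *Dnajc6* and *Hs6st2*, at root mean square distances of 0.094 to 0.126 log2 units after centring. The closest to *Gal* was *Th* (0.543), followed by *9330182L06Rik*, *Krt222*, *Zcchc18* and *Syt1* (up to 0.782). The closest to *Npy* were *Oas3* (0.859), *Inhba*, *Oas2*, *Zbp1* and *Fblim1* (up to 1.22), of which *Oas2*, *Oas3* and *Zbp1* are known as interferon-induced genes. With 6 libraries in 2 groups, these distances describe the profiles and carry no test.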
